A study of Meriones unguiculatus and Mus musculus with 2 samples.

Results

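Genes of the skeletal muscle sarcomere and of muscle energy supply were followed 3 days after wounding, in skin of the Mongolian gerbil (Meriones unguiculatus) and of the outbred ICR mouse. The set held 38 genes chosen by symbol from the 41214 mouse genes of the deposited table, with earlier results of these data known. It covers the contractile filaments, the Z-disc and M-band, calcium release and reuptake, and the muscle enzymes and oxygen store. Each species had 1 library of total RNA, so the values below describe these 2 libraries, with no replicate check and no p-value. The labels give the strain for the mouse only, and call the tissue dermis of the wound and the sample skin. The labels used here state neither age nor how many animals went into a library. Levels are FPKM, which corrects for the length of a transcript and for the size of a library. No counts were used, and the sequencing depth is unknown.

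Striated muscle contracts when calcium binds troponin C on the thin filament, which lets the myosin heads of the thick filament pull on actin. Fibres come in slow and fast types, and most parts of the machine have a separate gene for each: heavy and light myosin chains, the 3 troponin subunits, the calcium pump and myosin-binding protein C. Rodent skin carries its own striated muscle, the panniculus carnosus, a thin sheet under the dermis that moves the skin and is cut through in a full-thickness wound. Muscle RNA in a bulk skin sample can differ because the sample held more or fewer fibres or because each fibre held more or less RNA, and these cannot be told apart here.

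Of the 38 genes, 36 had a value in both libraries. Acta1, skeletal alpha-actin, had no value in either library. The table has 221 such rows, 182 of them on chromosome 8, where Acta1 lies, and the missing value is not read as absence. Tcap, the titin cap, was at 5.24 FPKM in ICR and had no gerbil match. All 36 reached at least 1 FPKM in at least 1 library and were therefore measured. The gerbil column was read as the level of an assembled gerbil sequence matched to a mouse gene with an expectation value. For 34 of the 36 genes that expectation value was 0, the strongest match, and the exceptions were Smpx (5e-178) and Mybpc1 (2e-12). Several mouse genes can carry 1 gerbil value, either because they were matched to the same sequence or because values with 2 decimals coincide. Of the 36 gerbil values, 3 were listed for no other gene, those of Mylpf, Tnnc2 and Tnni2. For another 26 no related sequence was found among the genes that shared the value; for Myl3, Myoz1, Ryr1 and Ldb3, 1 sharing gene had no sequence to compare. Between 1 and 10 FPKM, where 18 of the genes lay, a value was carried by a median of 11.5 genes for the muscle set and of 18 genes over the whole table. Ckm and Casq1 shared theirs with A930016O22Rik and Gm17224, noncoding genes that overlap them on the opposite strand, and since strand-specific counting is not stated in the sources used here, the reads of each such pair cannot be told apart. In ICR these noncoding genes were at or near 0.

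**Figure D1:**
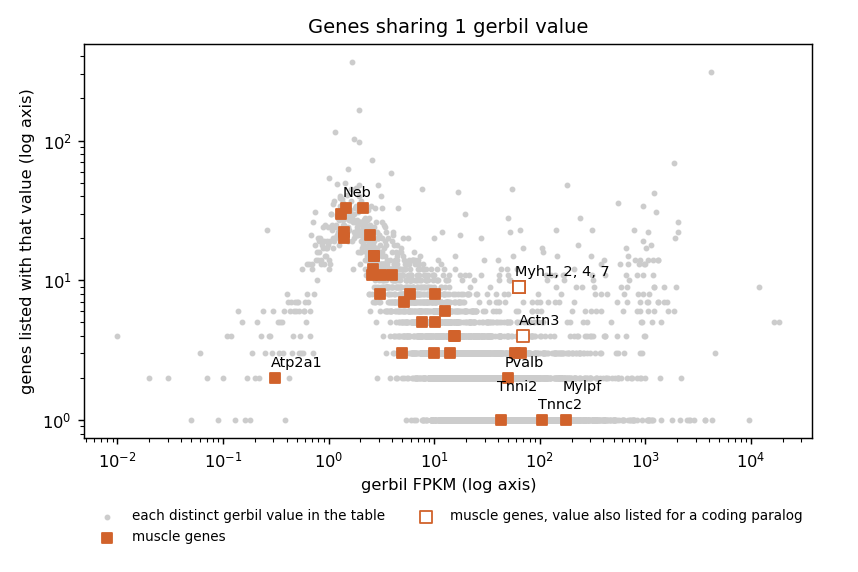
Number of mouse genes listed with a gerbil value (vertical, log axis) against that value in FPKM (horizontal, log axis). Each grey point is a distinct value of the table, filled squares are muscle genes, and open squares are muscle genes whose value is also listed for a coding paralog. Low values are shared by many genes, while Tnni2, Tnnc2 and Mylpf each stand alone and the 4 myosin heavy chain genes sit together at 63.6 FPKM.

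The remaining 5 genes, Myh1, Myh2, Myh4, Myh7 and Actn3, carried a gerbil value that was also listed for a coding gene of related sequence. The myosin heavy chain sequences show how close these genes are. Below are 60 bases of coding sequence from Myh4 (chr11:67238029-67260446), Myh1 (chr11:67200052-67224575), Myh2 (chr11:67171027-67197517), all on the plus strand of GRCm38, and Myh7 (chr14:54970688-54994634, minus strand). They come from the GENCODE M21 transcripts and were chosen as the stretch with the fewest differing bases, coding bases 5293 to 5352 of Myh4. Capitals mark bases that differ from Myh4.
Myh4: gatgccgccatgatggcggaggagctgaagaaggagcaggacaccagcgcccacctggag
Myh1: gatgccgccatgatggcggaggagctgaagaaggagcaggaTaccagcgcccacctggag
Myh2: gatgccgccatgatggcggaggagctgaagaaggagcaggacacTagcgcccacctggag
Myh7: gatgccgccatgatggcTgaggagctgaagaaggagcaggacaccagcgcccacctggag
In this stretch Myh1, Myh2 and Myh7 each differed from Myh4 at 1 of 60 bases. Over the whole coding sequence the identity with Myh4 was 90.3% for Myh1, 88.2% for Myh2 and 77.9% for Myh7.

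Actn3 and its relatives, and the troponin C genes, are shown in the same way because they lie on either side of that line. Actn3 (chr19:4861223-4877909, minus strand) shared its gerbil value with Actn1 (chr12:80167542-80260371, minus strand) but not with Actn2 (chr13:12269426-12340760, minus strand). Tnnc2 (chr2:164777161-164779967, minus strand) and Tnnc1 (chr14:31208312-31211729, plus strand) had separate values. Capitals mark bases that differ from Actn3 or from Tnnc2.
Actn3: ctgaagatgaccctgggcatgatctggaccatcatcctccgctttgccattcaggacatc
Actn1: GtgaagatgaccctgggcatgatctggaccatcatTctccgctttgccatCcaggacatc
Actn2: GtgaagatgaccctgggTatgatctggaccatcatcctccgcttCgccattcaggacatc
Tnnc2: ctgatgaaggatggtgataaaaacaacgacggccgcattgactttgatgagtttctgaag
Tnnc1: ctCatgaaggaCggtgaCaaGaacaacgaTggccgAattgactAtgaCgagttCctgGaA
Even in their closest 60 bases the troponin C genes differed at 11 positions, against 3 for each actinin. Over the whole coding sequence Actn3 was 76.2% identical to Actn1 and 75.6% to Actn2, and Tnnc2 was 70.7% identical to Tnnc1. Identity alone did not sort the genes that shared a value from those that did not: Myh7b, at 70.1% identity to Myh4, carried the myosin value. The value of Actn3 was also listed for the unrelated genes Tbcb and Srsf2, so a common gerbil sequence and a coincidence of values cannot be told apart for Actn1 and Actn3.

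Across the set, muscle genes were mostly listed at higher levels in the gerbil wound, as were most measured symbols. Of 36 measured genes, 28 (77.8%) were higher in gerbil and 8 lower. Over all measured symbols 70.4% were higher and 29.6% lower, and over protein-coding symbols 59.6% were higher and 40.4% lower. The median difference in log2(FPKM + 1), gerbil minus ICR, was 0.96, beside 0.87 over all measured symbols and 0.30 over protein-coding symbols. At least 4-fold higher in gerbil on the FPKM + 1 scale were 7 genes (19.4%), against a background of 25.9% of all symbols and 9.71% of protein-coding symbols. Those 7 were Myh1, Myh2, Myh4, Myh7, Actn3, Pvalb and Ttn, and the first 5 are the genes that share a value with a paralog. Without those 5, 23 of 31 genes (74.2%) were higher in gerbil, 2 (6.45%) were at least 4-fold higher and the median was 0.74. The backgrounds were not filtered for paralog-shared values, so these shares are not set against them. At least 4-fold higher in ICR were Atp2a1 and Myl1, where 5.56% of all symbols and 7.42% of coding symbols passed. After scaling by a trimmed mean of log ratios, a shift of the gerbil library by -0.52 in log2 units, 24 genes (66.7%) were higher in gerbil and 12 lower, and Ckm, Tnnc1, Ryr1 and Smpx had changed side. Under that scaling 45.5% of protein-coding symbols were higher in gerbil. Without the 5 genes with paralog-shared values, 19 of 31 (61.3%) were higher under it. Scaling to ribosomal protein and housekeeping genes lowered gerbil by 0.28 and moved Ckm and Smpx.

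**Figure D2:**
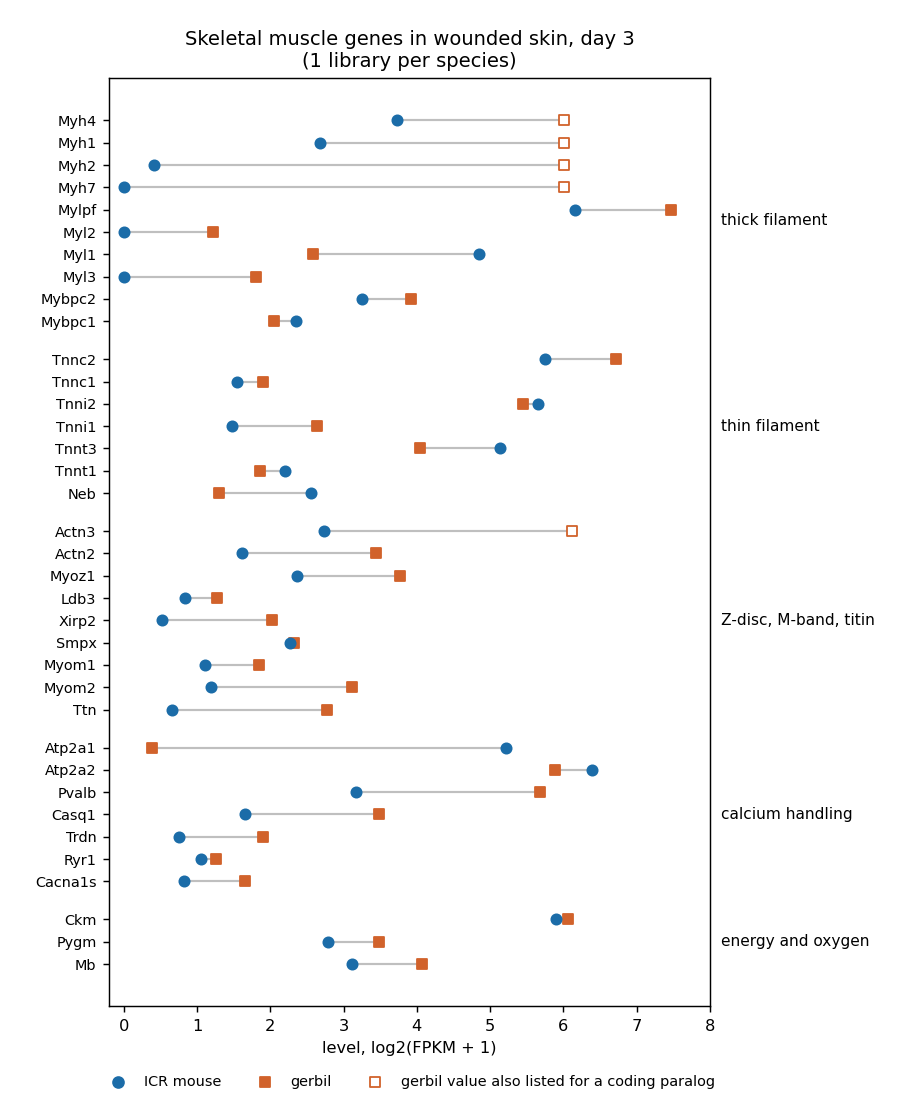
Level of each measured muscle gene as log2(FPKM + 1) in the ICR library (circles) and the gerbil library (squares), grouped by role. Open squares mark gerbil values also listed for a coding paralog. Most squares lie to the right of their circle, with Atp2a1 and Myl1 far to the left.

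In the thick filament, the myosin heavy chains carry the motor. The mouse library resolved them: Myh4, the fastest (type 2B) chain, was at 12.3 FPKM in ICR, Myh1 (type 2X) at 5.42, Myh2 (type 2A) at 0.334, and Myh7, the slow chain, was listed at 0. The fast 2B and 2X chains thus led in the mouse. In gerbil all 4 genes carried 63.6 FPKM, as did Myh3, Myh8, Myh13, Myh6 and Myh7b, and no gene outside this family was listed with that value. The order of the chains in gerbil can therefore not be read. Summed over the 9 genes, ICR reached 20.2 FPKM, and the single gerbil value was 3.05-fold higher than that sum on the FPKM + 1 scale. This is smaller than the 4.85-fold of Myh4, the 10.1-fold of Myh1 or the 48.5-fold of Myh2 when each is set against the shared value alone.

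The light chains wrap the neck of the myosin head. Mylpf, the fast regulatory light chain (chromosome 7, 127211608 to 127214298, GRCm38), was at 70.4 FPKM in the mouse and 177 in the gerbil, 2.49-fold higher. Its gerbil value was its own, and it stood at percentile 92.5 of measured coding genes in ICR and 96.7 in gerbil. The slow regulatory chain Myl2 was listed at 0 in the mouse and at 1.32 FPKM in the gerbil. Myl1, the fast essential light chain (chromosome 1, 66924295 to 66945404), went the other way, at 27.8 FPKM in the mouse and 4.99 in the gerbil, 4.81-fold higher in the mouse. Its slow counterpart Myl3 was listed at 0 in the mouse and at 2.49 FPKM in the gerbil. The gerbil values of Myl1, Myl2 and Myl3 were shared with 2, 29 and 20 other genes. As listed, the fast light chains thus differed in opposite directions between the libraries. Myosin-binding protein C, a brace along the thick filament, was at 8.56 and 14.2 FPKM for the fast gene Mybpc2 and at 4.12 and 3.15 for the slow gene Mybpc1, whose gerbil match was the weakest of the set.

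The troponin complex on the thin filament is the calcium switch. Tnnc2, the calcium-binding fast subunit, was at 52.8 FPKM in the mouse and 104 in the gerbil, 1.95-fold higher. Tnni2, the fast inhibitory subunit (chromosome 7, 142441808 to 142444410), was at 49.3 and 42.7 FPKM. Both values were listed for no other gene. Tnnt3, the fast subunit that anchors the complex to tropomyosin, lies 54426 bases from Tnni2 and was at 34.2 FPKM in the mouse and 15.6 in the gerbil, 2.12-fold higher in the mouse. In ICR the 3 fast subunits thus lay within a narrow range, from 34.2 to 52.8 FPKM, whereas in gerbil they spread from 15.6 to 104. The slow subunits were low in both species. Tnnc1 was at 1.91 and 2.72 FPKM in ICR and gerbil, Tnni1 at 1.78 and 5.2, and Tnnt1 at 3.59 and 2.64. Neb, nebulin, the giant protein that runs along the thin filament, was at 4.85 FPKM in the mouse and 1.47 in the gerbil, a value it shared with 32 other genes.

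At the Z-disc, where thin filaments are anchored, Actn2, the alpha-actinin of all fibres, was at 2.05 FPKM in the mouse and 9.87 in the gerbil, 3.57-fold higher. Actn3, the alpha-actinin of fast fibres, was at 5.66 FPKM in the mouse and 68.6 in the gerbil. The actinin Actn1, which is widely expressed outside muscle, was at 57.9 in ICR and carried the same gerbil value. Summed, Actn1 and Actn3 came to 63.6 FPKM in ICR and differed from the gerbil value by 1.08-fold. Myoz1, a calcineurin-binding protein of fast fibres, was at 4.13 and 12.6 FPKM. The anchor protein Ldb3 was at 0.790 and 1.41, the actin-binding Xirp2 at 0.436 and 3.07, and Smpx, a small protein of the muscle cell periphery, was level at 3.82 and 4.0. Ttn, titin, the spring that spans from Z-disc to M-band, was at 0.572 FPKM in the mouse and 5.86 in the gerbil. It was 4.36-fold higher in gerbil, and both scalings and a pseudocount of 5 took it below 4-fold. The M-band cross-linkers Myom1 and Myom2 were at 1.16 and 2.60 FPKM and at 1.29 and 7.65. Every gene of this compartment was higher in gerbil as deposited, though Smpx, which differed least, was lower under both scalings.

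The calcium handling genes included the largest difference toward the mouse among the 36 genes. Atp2a1, SERCA1, the pump that returns calcium to the store in fast fibres (chromosome 7, 126445858 to 126463108), was at 36.2 FPKM in the mouse and 0.31 in the gerbil, 28.4-fold higher in the mouse on the FPKM + 1 scale. Its gerbil match had an expectation value of 0, and the value was shared with 1 gene, the unrelated Tmem92. Atp2a2, SERCA2, used by slow and cardiac muscle and, as a splice form, by other cells, was at 83.1 and 58.4 FPKM. The pump genes were 75.2% identical in mouse and had separate gerbil values. Pvalb, parvalbumin, the calcium buffer that speeds relaxation of fast fibres (chromosome 15, 78191114 to 78206400), differed in the opposite direction to Atp2a1, at 8.01 FPKM in the mouse and 50.3 in the gerbil. This was 5.69-fold, the largest difference toward gerbil on the FPKM + 1 scale among members with no paralog-shared value. With a pseudocount of 0.1 the differences of Myl3, Myl2 and Ttn were larger. Its value was shared only with Ndufs8, a subunit of respiratory complex I, which was at 39.3 in ICR.

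The other members of the release machinery were at 2.16 FPKM or less in ICR and, apart from Casq1, at 2.72 or less in gerbil. Casq1, which stores calcium in the sarcoplasmic reticulum, was at 2.16 FPKM in the mouse and 10.2 in the gerbil. Trdn, triadin, which ties it to the release channel, was at 0.690 and 2.72. The channel Ryr1 was at 1.07 and 1.40 FPKM, and Cacna1s, the voltage sensor that opens it, at 0.775 and 2.14. The gerbil values of Ryr1 and Cacna1s were shared with 21 and 32 other genes.

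Among enzymes and the oxygen store, Ckm, muscle creatine kinase, which regenerates ATP at the myofibril (chromosome 7, 19411094 to 19421583), was close to level at 58.6 FPKM in the mouse and 66.1 in the gerbil. Pygm, muscle glycogen phosphorylase, was at 5.89 and 10.2 FPKM. Mb, myoglobin, the oxygen store of oxidative fibres, was at 7.63 and 15.8.

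Fast-fibre isoforms exceeded slow isoforms in both species. Of 10 pairs formed from genes of the same role, the fast gene was higher in 9 in ICR and in 7 in gerbil. Among the 7 pairs with no paralog-shared value it was higher in 6 of 7 in each library, and the exception in both was the calcium pump. In 4 of the 10 pairs, 2 of these 7, the slow gene was listed at 0 in ICR, which is not read as absence. With those left out as well, the fast gene was higher in 4 of 5 pairs in each library. Tnnc2 exceeded Tnnc1 27.6-fold in ICR and 38.3-fold in gerbil, and Tnni2 exceeded Tnni1 27.7-fold and 8.20-fold, as plain FPKM ratios within a library. For troponin T the ratios were 9.52 and 5.89, and for myosin-binding protein C 2.08 and 4.50. Mylpf exceeded Myl2 134-fold in gerbil, and Myl1 exceeded Myl3 2.0-fold, while both slow genes were listed at 0 in ICR. For the pump, Atp2a2 exceeded Atp2a1 2.30-fold in ICR and 188-fold in gerbil. The gerbil ratios of 134 and 188 divide by low values, 1.32 FPKM for Myl2 and 0.31 for Atp2a1, so their size is imprecise. On the FPKM + 1 scale the log2 ratio of Atp2a1 to Atp2a2 was -1.18 in ICR and -5.50 in gerbil.

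Such within-library ratios do not depend on how the libraries are scaled to each other, apart from the added 1 FPKM. The median log2 ratio of fast to slow over the 7 pairs was 4.18 in ICR and 2.18 in gerbil, and 2.94 and 2.18 over the 5 pairs with no gene listed at 0. The median change from ICR to gerbil over these pairs was -0.75, with a range from -4.32 (calcium pump) to 0.97 (myosin-binding protein C), 4 pairs below 0 and 3 above. Over all 10 pairs the median change was -0.58; there the Myh pairs have a gerbil ratio of 0 by construction, because their members carry the same value. The pairs thus gave no single direction.

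**Figure D3:**
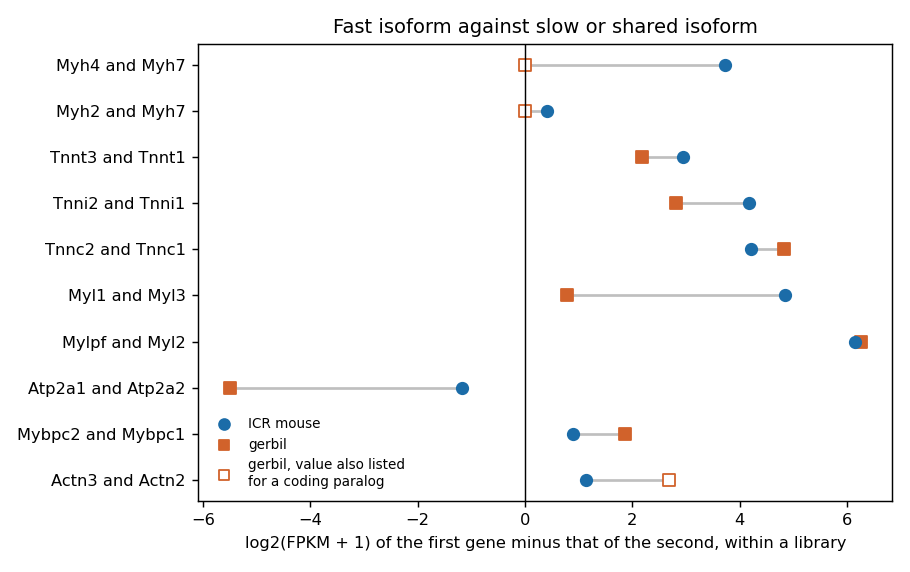
Log2(FPKM + 1) of the fast gene minus that of its slow or shared counterpart, within the ICR library (circles) and the gerbil library (squares). Open squares mark pairs that include a gerbil value also listed for a coding paralog. All pairs but the calcium pump lie at or above 0, and Myl1 with Myl3 and Atp2a1 with Atp2a2 shift furthest to the left in gerbil among pairs with no paralog-shared value.

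By list, the 13 fast-fibre genes had a median difference of 1.32 (9 higher and 4 lower in gerbil), and the 9 slow-fibre or oxidative genes one of 0.96 (6 higher and 3 lower). With the paralog-shared values left out, the medians were 0.66 over 9 fast genes and 0.66 over 8 slow genes, and 5 of each were higher in gerbil. Fast genes ranged from -4.83 (Atp2a1) to 2.51 (Pvalb) in this subset, and slow genes from -0.50 (Atp2a2) to 1.80 (Myl3). The median level of these fast genes was 34.2 FPKM in the mouse and 15.6 in the gerbil, and that of the slow genes 2.75 and 2.94. Over all 13 fast genes it was 12.3 and 50.3 FPKM, and over all 9 slow genes 1.91 and 3.15. Which library had the higher median level in the fast genes thus turned on whether paralog-shared values were kept. The median difference per fast gene was toward gerbil either way (1.32 and 0.66).

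The order of the most abundant genes overlapped between species. Leaving out paralog-shared values, the leaders in ICR were Atp2a2, Mylpf, Ckm, Tnnc2 and Tnni2, and in gerbil Mylpf, Tnnc2, Ckm, Atp2a2 and Pvalb. Across these 31 genes Spearman's rho between the libraries was 0.69, a description across genes that share their libraries. The longest genes stood lowest: the median level was 5.88 FPKM in the mouse and 8.91 in the gerbil over 14 genes with a coding sequence under 1000 bases, and 4.12 and 9.87 over 11 genes of 1000 to under 5000 bases. It was 0.922 and 2.37 FPKM over the 6 genes of 5000 bases and over, Ryr1, Cacna1s, Myom1, Xirp2, Ttn and Neb. The difference between species did not follow length in the same way (rho -0.04 over 31 genes, against -0.32 for the ICR level and -0.37 for the gerbil level).

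Further muscle genes were read from companion lists. The 34 measured genes of other sarcomere and muscle cytoskeleton proteins had a median difference of 0.59, with 26 (76.5%) higher and 8 lower in gerbil. Past 4-fold were 3 toward gerbil (8.82%: Myoz2, Klhl41, Trim54) and 2 toward ICR (Obsl1, Tpm2). Trim54 carried the same gerbil value as Trim63. Those of Obsl1, Myoz2 and Klhl41 were carried by 41, 6 and 5 genes. For this and the following lists, 59.6% of protein-coding and 70.4% of all symbols were higher in gerbil. The shares past 4-fold were 9.71% and 25.9% toward gerbil, and 7.42% and 5.56% toward ICR. Tpm2, beta-tropomyosin, was at 203 FPKM in the mouse and 5.93 in the gerbil. Tpm3, a tropomyosin of slow fibres and of many other cells, was at 73.6 and 236. The gerbil values of Tpm2 and Tpm3 were carried by 6 and 3 genes. Des, desmin, the intermediate filament of muscle, was at 40.5 FPKM in the mouse and 66.3 in the gerbil, and that gerbil value was its own. Genes of the triad and the motor endplate had a median of 0.61 over 16 measured genes, 11 higher and 5 lower, with none past 4-fold in either direction. The most abundant there were Bin1, which shapes the transverse tubule (31.2 and 14.7 FPKM), and Asph (16.2 and 11.9), and the largest difference was in Hrc, a calcium-binding protein of the reticulum (1.30 and 7.25). The dystrophin complex, which links the fibre to its matrix, had a median of 0.64 over 12 genes, 10 higher and 2 lower. Its receptor core Dag1 was at 17.4 and 34.0 FPKM, and Sgcb, beta-sarcoglycan, at 4.67 and 14.3.

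Muscle metabolism genes had a median of 0.45 over 18 measured genes, 12 higher and 6 lower in gerbil, and -0.02 under the trimmed mean scaling. The most abundant were Ldha (1848 and 1905 FPKM) and Aldoa (1459 and 687), glycolytic genes used by many skin cells. Slc2a4, the insulin-responsive glucose transporter of muscle and fat, was at 1.44 and 304. The gerbil match of Slc2a4 was weak (2e-41), and its value was also listed for Slc2a3.

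Regulators of myogenesis, which switch satellite cells toward new fibres, were low and near the background. Of 16 listed genes 10 were measured, with a median of 0.32, 6 higher and 4 lower. Myog, myogenin, which drives terminal differentiation, was at 3.18 FPKM in the mouse and 3.08 in the gerbil. Mef2a and Mef2d, transcription factors not restricted to muscle, led the list at 18.1 and 16.6 FPKM and at 15.3 and 10.2. Pax3 differed most, at 0.028 and 4.73 FPKM on a weak match (1e-24). The satellite cell genes Pax7 and Myf5 were at 0.051 and 0.024 FPKM in ICR and had no gerbil match. Genes of the developmental sarcomere had a median of 1.62 over 8 measured genes, 6 higher and 2 lower in gerbil. The 2 lower genes had the highest mouse levels of the list: Tnnt2 (10.4 FPKM, against 3.22 for the gerbil) and Myl4 (5.57 against 3.72). Their gerbil values were carried by 15 and 12 genes. Among the 6 higher genes, Myh3 and Myh8 carried the shared myosin value. In ICR these embryonic and neonatal chains were at 0.364 and 0.095 FPKM, below the adult fast chains Myh4 and Myh1. Actc1, cardiac alpha-actin, which developing skeletal muscle also uses, was at 2.83 FPKM in the mouse and 75.4 in the gerbil, shared with 3 other genes.

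**Figure D4:**
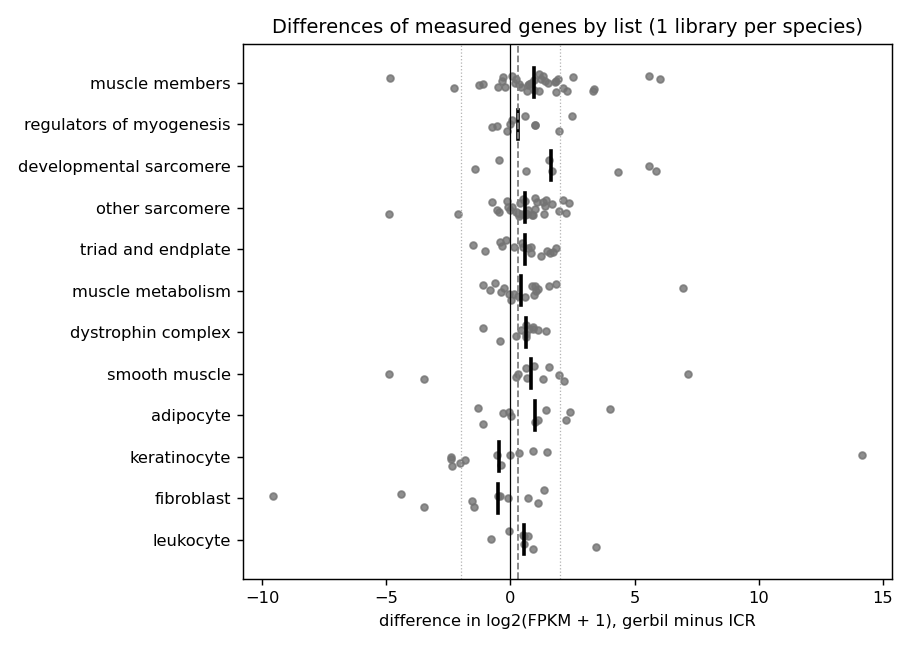
Difference in log2(FPKM + 1), gerbil minus ICR, of each measured gene (points) with the list's median (vertical bar). The dashed line is the median of protein-coding genes at 0.30 and the dotted lines mark 4-fold. The muscle lists centre between 0.32 and 1.62, and the adipocyte (0.99), smooth muscle (0.82) and leukocyte (0.55) lists lie within that range. Keratinocyte and fibroblast genes centre at -0.47 and -0.51. The median of 1.62 is that of the developmental list, in which Myh3 and Myh8 carry the shared myosin value.

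Markers of other cells were present in both libraries, and they did not all lie on the same side. The keratinocyte list had a median of -0.47 (12 of 12 measured, 8 lower in gerbil), with Krt1 at 2471 and 2469 FPKM, so epidermal RNA was abundant although the tissue label says dermis. Krt14, a basal keratin, was listed at 0 in ICR and is not read as absent. The fibroblast list had a median of -0.51 (11 of 11 measured, 8 lower and 3 higher in gerbil). Its 3 genes past 4-fold toward ICR, Col3a1, Mfap5 and Pi16, had weak gerbil matches (9e-14, 5e-06 and 4e-28). Col3a1 was at 1794 FPKM in the mouse and 1.37 in the gerbil, a value carried by 36 genes. The adipocyte list had a median of 0.99 (11 of 12 measured, 7 higher and 4 lower in gerbil). That is close to the muscle median, and its summed level was 338 FPKM in the mouse and 321 in the gerbil with each distinct gerbil value counted once and none of its measured genes at 0. Fabp4, at 230 and 93.8 FPKM, made up most of that ICR sum. The 36 muscle genes summed to 501 and 772 FPKM, also with each distinct gerbil value counted once. Among them Myh7, Myl2 and Myl3 were listed at 0 in ICR. Without the muscle genes that carry paralog-shared values the sums were 478 and 639 FPKM. All sums here are as deposited and were not recomputed under either scaling, so no direction between the libraries is read from them. Smooth muscle genes had a median of 0.82 over 12 of 13, 10 higher and 2 lower, and a summed level of 344 and 747 FPKM. Most of the gerbil sum lay in Actg2 and Acta2, and most of the ICR sum in Tpm2 (203 and 5.93). Actg2 was at 1.95 and 419 FPKM, a gerbil value carried by 2 genes. Acta2, smooth muscle actin, was at 42.5 and 169 FPKM, the latter also the value of Actb and Actg1. These sums therefore do not give a direction for the list as a whole. Tagln, transgelin, was at 15.9 and 74.1 FPKM with its own gerbil value. Leukocyte genes had a median of 0.55 over 8 of 10. The part that any of these cells, or the depth of tissue sampled, plays in the muscle differences was not tested.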

How the data were processed

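RNA sequencing was available for 1 gerbil and 1 ICR library, grouped by the sample labels. The deposited table gave both in FPKM, per the file headers, with the gerbil column placed under expression measured after assembly. Tools named in the submitters' processing notes, with no role, were STAR 2.4.0b, Cufflinks 2.2.1, RSEM 1.2.19 and CASAVA, and the build was GRCm38.p2. Which assembler and which search program were used is not given there. Differences are log2(FPKM + 1), gerbil minus ICR, which understates low genes. Genes with a value in each library, of which the higher was 1 FPKM or more, were counted as measured (20089 symbols, 14054 of them protein-coding in GENCODE M21). Without replicates, genes were called by size alone, at 4-fold. Of entries with the same symbol the highest mean was taken.

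Members and lists were chosen with earlier results of these data known. Companion genes were named by rule, the 2 most abundant and the 1 most different of each list. Every other companion gene was named after its values were seen. Some genes the rule takes in (Lep, Car3, Krt5, Col1a2 and the leukocyte genes) are not described singly. Related genes were found with blastn 2.17.0 (expectation value 1e-05, at least 100 bases), and identities with biopython 1.88 global alignments of the longest complete coding sequences. Computations ran under Python 3.11.15 with scipy 1.17.1, pandas 2.3.3 and numpy 2.4.6. The size rule was also run on simulated data, with changes set well past 4-fold in genes well above 1 FPKM. That run could not test the rule for low or paralog-shared values. Other pseudocounts, floors, scalings and size rules were also tried.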

Additional observations from a re-analysis of the deposited data

How the results depend on the processing

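Depth is unknown and FPKM near 1 is imprecise. No paired analysis was possible because there was a single library on each side, which also leaves nothing to omit. Leaving out genes with paralog-shared values, or pairs with a gene listed at 0, was chosen after seeing the data. A value was taken as moved when a count changed by over 1.5 times or a median by over 1.5-fold. None of the medians over members, fast genes, slow genes or pairs changed sign. The median over all measured members stayed between 0.48 and 1.32 under every setting.

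The count of members at least 4-fold higher in gerbil, 7 as reported, was 13 with a pseudocount of 0.1, 4 with 1 FPKM required in both libraries, 17 with a 2-fold rule, 4 with an 8-fold rule and 2 without paralog-shared values. The count at least 4-fold higher in ICR, 2 as reported, was 1 with a pseudocount of 5, 1 with 1 FPKM in both libraries, 4 with a 2-fold rule and 1 with an 8-fold rule. Both counts were 0 over the 3 members whose gerbil value is listed for no other gene; that setting left no slow gene and no pair. The slow-fibre median of 0.96 was 0.34 with a pseudocount of 5 and 0.026 with 1 FPKM in both libraries. It was 0.23 under the trimmed mean scaling, where 1 slow gene fell below 1 FPKM and left 8, and 0.48 with that gene kept. The fast-fibre median of 1.32 was 0.66 without paralog-shared values. The median change of the fast to slow ratio, -0.58, was -1.91 with a pseudocount of 0.1. Restricted settings hold fewer genes by construction; for the others the cause was not tested.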

Other observations

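Of 8 listed cardiac sarcomere genes 4 were measured, and Myl7, Nppa, Nppb and Ryr2 had no gerbil match. Nppb, a natriuretic peptide, was at 6.0 FPKM in ICR, the highest ICR value of the list. Tnni3, the cardiac inhibitory troponin, was at 2.22 FPKM in the mouse and 1.08 in the gerbil, Casq2, a calsequestrin of heart and slow muscle, at 2.64 and 2.49, and Mybpc3 at 0.788 and 3.42. Myh6, a cardiac myosin, was listed at 0 in ICR and carried the shared myosin value in gerbil. Trim63 and Trim54, ubiquitin ligases of the sarcomere, were at 2.60 and 1.04 FPKM in ICR and shared 8.75 in gerbil. The stress chaperone Cryab was at 17.3 and 35.7 FPKM, and that gerbil value was its own. Sln, sarcolipin, which inhibits the calcium pump, was at 9.16 and 8.07.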
